A study of Caenorhabditis elegans with 27 samples.

Results

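The cathepsin B-like protease genes cpr-1, cpr-2, cpr-3, cpr-4, cpr-5, cpr-6 and cpr-8 of Caenorhabditis elegans were followed through adult life, on a bacterial diet with or without black rice extract. These 7 of the 46934 genes in the deposited table were taken by name, and all 7 had counts enough to be tested. They were set out to place cpr-2, whose increase with age was known beforehand, beside the members ascribed to the gut. The age course of cpr-2 is therefore given as a description, with no test.

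All worms were of the wild-type strain N2, synchronized at the L4 larval stage and kept at 20 °C on agar seeded with Escherichia coli OP50. The BRE groups, sampled at days 6, 11, 15 and 17, had black rice extract in the agar together with OP50. The OP50 groups, sampled at days 1, 6, 11, 15 and 17, had the bacteria alone, so that day 1 has no BRE counterpart. Each of the 9 groups held 3 libraries, described as biological replicates, and each library came from about 1000 whole worms. Concentrations of 0, 0.42, 1.04 and 1.67 mg/mL of extract appear in the labels, which do not say at which of them the sequenced worms were kept.

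Libraries held between 101.61 and 164.34 M counts, and the 7 genes together took between 0.0313% and 0.218% of them. Levels are in CPM, counts scaled to the same TMM-normalized total in every library. The differences between groups, log2 fold changes with a standard error (SE), come from edgeR's quasi-likelihood test, and a gene is called changed where its Benjamini-Hochberg adjusted p over 19290 genes is under 0.05. In 4 libraries the major sperm protein genes summed to between 27.8 and 101 CPM before TMM normalization, against at most 20.4 in any other library on that scale. They were OP50 replicate 1 of days 11 and 17, OP50 day 15 replicate 3 and BRE day 11 replicate 1. The RNA is from whole worms, so fewer cells of a type and less RNA per cell cannot be told apart.

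Cathepsin B belongs to the papain family of cysteine proteases, which cut proteins with a cysteine in the active site. They are made as inactive precursors and matured by removal of a propeptide, usually in acidic compartments such as the lysosome, and some are secreted. In nematodes many of them are made by intestinal cells and take part in the digestion of food. Cystatins are small proteins that block such proteases by filling the active-site cleft.

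In the WBcel235 annotation, which may differ from the build used for counting, 6 of the genes lie on chromosome V and 1 on chromosome X. cpr-1 spans V:11975551-11976756 (plus strand, 1078 exonic bp), cpr-2 V:16532936-16534100 (minus strand, 1065 exonic bp) and cpr-3 V:15296834-15298700 (minus strand, 1369 exonic bp). cpr-4 spans V:6614674-6615851 (plus strand, 1129 exonic bp) and cpr-6 X:6607207-6609045 (plus strand, 1260 exonic bp). cpr-5 (V:1132598-1134036, minus strand, 1205 exonic bp) and cpr-8 (V:1134602-1139182, plus strand, 1095 exonic bp) are neighbours that point away from each other with 565 bp between them. No member overlaps another annotated gene except cpr-4, whose exon holds a piRNA locus that had 0 counts in the 27 libraries. The sources used here do not say how reads that match several genes were assigned.

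On OP50 alone the 7 genes followed different courses. By day 17 the transcripts of cpr-1, cpr-4, cpr-5, cpr-6 and cpr-8 were lower than at day 1 by between 3.09-fold for cpr-1 and 16.1-fold for cpr-5. cpr-2 stood higher by 8.26 log2 units, and cpr-3 did not pass the test. Of the 6 members other than cpr-2, 5 were called at day 17 against day 1, all lower, where 53.9% of all genes tested were called, 29.1% higher and 24.8% lower. The median log2 change over these 6 was -2.49, against 0.10 over all genes tested.

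**Figure D1:**
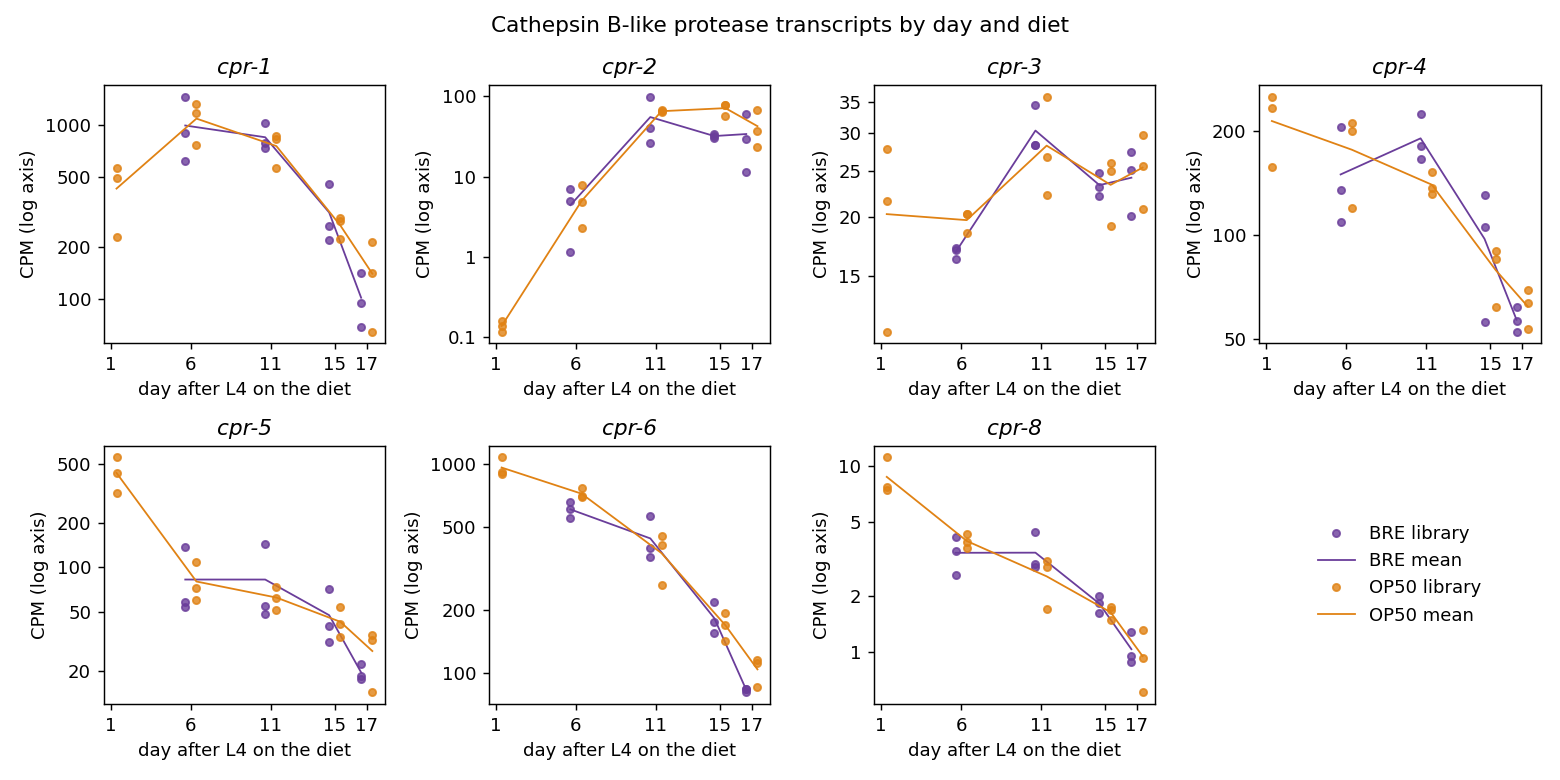
CPM of each gene (log axis) against the day after the L4 stage, with 1 point per library and lines through the group means, BRE in purple and OP50 in orange. cpr-2 is the gene that lies lowest at day 1, cpr-3 stays between 11.4 and 35.9 CPM in every library, and the purple and orange points mix at most days.

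At day 1 cpr-2 was almost absent, with 0.116, 0.159 and 0.136 CPM in the OP50 libraries, or 13, 19 and 15 counts. It had 7.78, 2.26 and 4.83 CPM at day 6 and 67.0, 65.4 and 63.0 CPM at day 11. At day 15 it had 56.8, 78.9 and 77.6 CPM, and at day 17 it had 67.2, 36.5 and 23.4 CPM. Every library from day 6 on lay above every day 1 library, and the 3 libraries of day 11 lay above those of day 6. The log2 difference from day 1 was 5.16 (SE 0.75) at day 6, 8.88 (SE 0.83) at day 11, 9.00 (SE 0.84) at day 15 and 8.26 (SE 0.82) at day 17. On the log2 scale 62.5% of the day 17 change was present at day 6, a share that starts from the 13 to 19 counts of day 1. In CPM most of the rise came later, with means of 4.96 at day 6, 71.1 at day 15 and 42.4 at day 17. The libraries of days 11, 15 and 17 overlapped. The log2 difference was 0.13 (SE 0.56) for day 15 against day 11 and -0.75 (SE 0.56) for day 17 against day 15.

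The cpr-2 transcript had a similar course with the extract. In BRE worms it had 7.06, 5.0 and 1.15 CPM at day 6, 98.7, 26 and 40.4 CPM at day 11, 34.1, 31.5 and 30.1 CPM at day 15, and 29.3, 60.6 and 11.5 CPM at day 17. The day 6 libraries lay below those of each later day, and days 11, 15 and 17 overlapped. Day 11 exceeded day 6 by 3.64 log2 units (SE 0.62). That difference rested in part on the library with 98.7 CPM, without which it was 2.75. That library is also one of the 4 with most sperm transcript, and 67.2 CPM at OP50 day 17 is another. In the remaining ones cpr-2 did not stand apart. OP50 day 11 replicate 1 had 67.0 CPM of cpr-2, beside 65.4 and 63.0 CPM. OP50 day 15 replicate 3, with the most sperm transcript, had 77.6 CPM, beside 56.8 and 78.9 CPM. Without all 4 the log2 difference from day 1 at OP50 day 17 was 7.84, and BRE day 11 exceeded day 6 by 2.75. The part of sperm transcript in these values was not tested.

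cpr-5 had the largest fall both at day 6 and at day 17. It had 556, 435 and 319 CPM in OP50 worms at day 1 and 108, 72.5 and 60.1 CPM at day 6. It then had 73.8, 51.6 and 62.3 CPM at day 11, 41.2, 53.7 and 33.6 CPM at day 15, and 32.3, 35.0 and 14.2 CPM at day 17. All later libraries lay below all day 1 libraries, while neighbouring days from day 6 on overlapped. At day 6 cpr-5 was 2.44 log2 units below day 1 (SE 0.43, edgeR adjusted p = 1.78e-04), a log2 change of -2.44. This was 61% of the change of -4.01 (SE 0.46, adjusted p = 2.51e-07) seen at day 17.

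cpr-6, a lysosomal cathepsin B-like protease, fell more evenly. Its level in OP50 worms was 916, 896 and 1077 CPM at day 1, 765, 700 and 700 CPM at day 6, and 451, 264 and 409 CPM at day 11. It was 170, 142 and 194 CPM at day 15 and 112, 115 and 85.2 CPM at day 17. At each sampled day all 3 libraries lay below all 3 libraries of the sampled day before. The log2 change from day 1 was -0.42 (SE 0.18, adjusted p = 0.0840) at day 6, -1.36 (SE 0.19, adjusted p = 5.77e-06) at day 11, -2.51 (SE 0.19, adjusted p = 8.60e-10) at day 15 and -3.21 (SE 0.20, adjusted p = 1.98e-11) at day 17. At day 6, 13% of the day 17 log2 change was present.

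cpr-8, the weakest of the falling genes, moved with cpr-6. In OP50 worms it had 7.41, 7.66 and 11.1 CPM at day 1, 3.90, 3.62 and 4.32 CPM at day 6, 2.85, 1.71 and 3.08 CPM at day 11, 1.69, 1.73 and 1.48 CPM at day 15, and 0.924, 1.32 and 0.605 CPM at day 17. Every later library lay below every day 1 library, and the day 17 libraries held 110, 187 and 98 counts. It fell at day 6 (log2 change -1.14, SE 0.27, adjusted p = 0.00218) and was lower still at day 17 (log2 change from day 1 -3.201, SE 0.29, adjusted p = 6.05e-09). Across the 27 libraries the log2 CPM of cpr-6 and cpr-8 had a Pearson correlation of 0.946, the highest of the 21 pairs of members. It was 0.739 for their deviations from the group means, where the highest pair was cpr-1 and cpr-5 at 0.813. The libraries share the course with age, and this is a description with no test. cpr-8 and its neighbour cpr-5 had a correlation of 0.881 over the libraries and 0.17 within groups.

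cpr-4, whose protein can be secreted, was called at days 15 and 17. Its OP50 libraries had 252, 234 and 157 CPM at day 1, 200, 211 and 120 CPM at day 6, 137, 132 and 152 CPM at day 11, 85.4, 62.1 and 90.4 CPM at day 15, and 69.6, 63.6 and 53.6 CPM at day 17. Days 1 and 6 overlapped, and all libraries from day 11 on lay below those of day 1. The log2 change from day 1 was -0.28 (SE 0.26, adjusted p = 0.439) at day 6 and -0.61 (SE 0.26, adjusted p = 0.0747) at day 11. It was -1.43 (SE 0.27, adjusted p = 1.48e-04) at day 15 and -1.78 (SE 0.27, adjusted p = 9.67e-06) at day 17.

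cpr-1, first described as a gut-specific cysteine protease gene, was highest in midlife. In OP50 worms it had 568, 499 and 227 CPM at day 1, 1317, 1181 and 773 CPM at day 6, 837, 570 and 866 CPM at day 11, 280, 293 and 221 CPM at day 15, and 142, 212 and 64.7 CPM at day 17. All day 6 and day 11 libraries lay above all day 1 libraries, day 15 overlapped with day 1, and all day 17 libraries lay below it. The log2 change from day 1 was 1.34 (SE 0.40, adjusted p = 0.0120) at day 6, 0.81 (SE 0.39, adjusted p = 0.110) at day 11, -0.70 (SE 0.39, adjusted p = 0.143) at day 15 and -1.63 (SE 0.40, adjusted p = 0.00161) at day 17. Without OP50 day 1 replicate 3, the library with 227 CPM, the day 6 change was 1.08 and missed the threshold (adjusted p = 0.0555).

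cpr-3 varied least. In OP50 worms it had 21.6, 27.8 and 11.4 CPM at day 1, 18.5, 20.2 and 20.3 CPM at day 6, 35.9, 22.2 and 26.7 CPM at day 11, 25, 25.9 and 19.1 CPM at day 15, and 29.8, 25.6 and 20.8 CPM at day 17. Every day overlapped with day 1, whose libraries were spread widely. The log2 change from day 1 lay between -0.04 at day 6 and 0.48 at day 11 and was 0.33 at day 17 (SE 0.23, adjusted p = 0.228). Without OP50 day 1 replicate 2, the library with 27.8 CPM, cpr-3 was called higher at days 11, 15 and 17 (0.80, 0.55 and 0.68, adjusted p = 0.00727, 0.0411 and 0.0125). The ratio of its highest to its lowest group mean was 1.81, against 3.76 for cpr-4, 9.19 for cpr-8, 10.7 for cpr-1, 11.6 for cpr-6, 22.4 for cpr-5 and 518 for cpr-2.

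**Figure D2:**
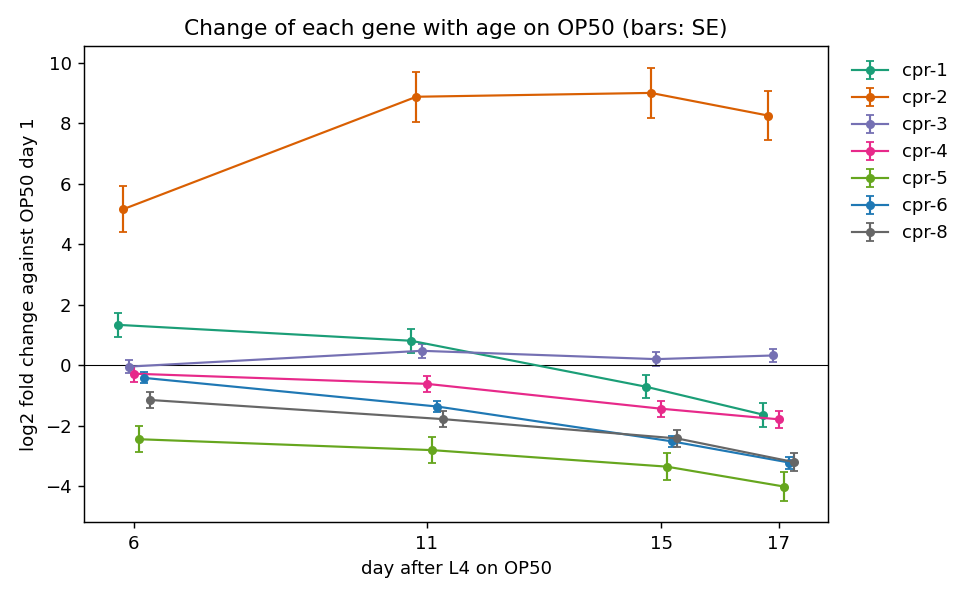
Log2 fold change of each gene in OP50 worms at days 6, 11, 15 and 17 against OP50 day 1, with bars of 1 SE, 1 colour per gene and small sideways shifts so that the bars can be seen. cpr-2 lies between 5.16 and 9.00, cpr-5 is at -2.44 by day 6, and cpr-1 crosses 0 between days 11 and 15. All 4 days are set against the same 3 day 1 libraries.

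At day 6 against day 1, 3 of the 6 members other than cpr-2 were called, 1 higher and 2 lower, beside 33% of all genes (14% higher and 19% lower). At day 11 there were 3 as well, all lower, beside 35.8% of all genes (19.2% higher and 16.6% lower). The count was 4 of 6 at day 15, all lower, beside 47.2% of all genes (26.1% higher and 21.1% lower). These comparisons share the day 1 libraries. At each day the members' share of calls was near or above that of all genes, and with 6 members nothing is read from it.

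Between neighbouring days on OP50, 1 of the 6 members other than cpr-2 was called for day 11 against day 6 (16.4% of all genes, 12.6% higher and 3.89% lower). It was cpr-6, which fell (log2 change -0.95, SE 0.18, adjusted p = 9.46e-04). For day 15 against day 11 there were 2 (5.95% of all genes, 3.07% higher and 2.88% lower), and both fell, cpr-6 by 1.15 log2 units (SE 0.18, adjusted p = 6.53e-04) and cpr-1 by 1.52 (SE 0.40, adjusted p = 0.0244). The cpr-1 call was lost without any 1 of 5 of the 6 libraries (adjusted p between 0.0650 and 0.117) and held without OP50 day 11 replicate 2. Without the 4 libraries with most sperm transcript it was lost too (-1.33, adjusted p = 0.203), which left 1 member. For day 17 against day 15, 0 members and 0% of all genes were called by edgeR. At an unadjusted p under 0.05 there were 3 members there, beside 7.62% of all genes. DESeq2 called cpr-6 (-0.68, adjusted p = 0.0479), and its share of all genes called is not given here.

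Between neighbouring days with the extract, 1 of the 6 members other than cpr-2 was called for day 11 against day 6 (14.9% of all genes, 12.7% higher and 2.23% lower), and that was cpr-3. cpr-6 missed the threshold in edgeR (-0.46, adjusted p = 0.09) and was called by DESeq2 (-0.55, adjusted p = 0.0257). cpr-3 had 28.4, 28.4 and 34.5 CPM at BRE day 11, against 16.3, 17.0 and 17.1 CPM at BRE day 6, with no overlap. It rose by 0.85 log2 units (SE 0.23, adjusted p = 0.0127), a call lost without BRE day 11 replicate 3, BRE day 6 replicate 1 or BRE day 6 replicate 2 (adjusted p = 0.0561, 0.0603 and 0.0561). In OP50 worms the same step of cpr-3 was 0.52 (SE 0.23, adjusted p = 0.119), and the libraries did not overlap there either. For BRE day 15 against day 11, 4 members fell (12.2% of all genes, 6.54% higher and 5.66% lower). They were cpr-6 (-1.27, SE 0.19, adjusted p = 2.25e-04), cpr-1 (-1.44, SE 0.40, adjusted p = 0.0223), cpr-4 (-0.97, SE 0.27, adjusted p = 0.0219) and cpr-8 (-0.91, SE 0.27, adjusted p = 0.0308). The cpr-8 call was lost without any 1 of the 6 libraries, and those of cpr-1 and cpr-4 without 3 of them each. Without BRE day 11 replicate 1, or without BRE day 15 replicate 2, the count was 1, and without BRE day 11 replicate 3 or BRE day 15 replicate 3 it was 2. Without the 4 libraries with most sperm transcript it was 1, cpr-6. For BRE day 17 against day 15, cpr-6 and cpr-1 fell, 2 members beside 1.23% of all genes (0.0674% higher and 1.17% lower). cpr-6 fell by 1.14 log2 units (SE 0.18, adjusted p = 0.00121). The cpr-1 change of -1.63 (SE 0.40, adjusted p = 0.0406) lost its call without any 1 of 5 of the 6 libraries and held without BRE day 15 replicate 3. It was also lost with RLE size factors and without the 4 libraries with most sperm transcript (-1.61, adjusted p = 0.0711).

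A linear trend over days 6 to 17 was called for 5 of the 6 members other than cpr-2 in BRE worms, beside 59.7% of all genes, and for 5 of 6 in OP50 worms, beside 60% of all genes. Per day, the log2 level changed by -0.25 for cpr-6 in BRE worms (adjusted p = 2.70e-11) and by -0.25 in OP50 worms (adjusted p = 2.96e-11). For cpr-1 the slope was -0.28 in BRE worms and -0.27 in OP50 worms, for cpr-5 -0.17 and -0.13, for cpr-8 -0.15 and -0.18, and for cpr-4 -0.12 and -0.14, all of them called. For cpr-2, not tested, the slope was 0.24 in BRE worms and 0.29 in OP50 worms. For cpr-3 it was 0.04 in BRE worms (adjusted p = 0.0861) and 0.03 in OP50 worms (adjusted p = 0.255), and without BRE day 17 replicate 2 the BRE slope was called (0.05, adjusted p = 0.0471). The slopes of the BRE worms minus those of the OP50 worms lay between -0.05 for cpr-2 and 0.03 for cpr-8. In this difference edgeR called 0 members and 0% of all genes. No member passed DESeq2's test, whose share of all genes called is not given here. The unadjusted p was under 0.05 for 0 of the 7, beside 2.51% of all genes.

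The make-up of the 7 genes' summed transcripts differed between the ages. These sums leave out cpr-9, which is not among the 7 and had 812 CPM at OP50 day 1 and 18.5 CPM at OP50 day 17. The shares that follow are of the summed CPM per exonic kb of the 7 genes, as means of 3 libraries. At OP50 day 1 cpr-6 held 44.9% ± 11.0 (SD, n = 3), cpr-1 22.4% ± 7.16, cpr-5 20.6% ± 2.86 and cpr-4 10.8% ± 1.27. At OP50 day 6 cpr-1 held 54.7% ± 4.61, and cpr-5 held 3.60% ± 0.574. At OP50 day 17 cpr-1 held 35.4% ± 9.82, cpr-6 24.6% ± 4.78, cpr-4 16.6% ± 4.07, cpr-2 11.3% ± 4.20 and cpr-5 6.28% ± 0.884. The share of cpr-2 had been 0.00754% ± 0.00170 at OP50 day 1 and 11.7% ± 2.16 at OP50 day 15. In BRE worms cpr-2 held 5.12% ± 1.11 at day 15 and 10.8% ± 6.43 at day 17, when cpr-1 held 33.4% ± 6.91. Per exonic kb cpr-6 ranked first at OP50 day 1, and cpr-1 ranked first with cpr-6 second in each of the other 8 groups. The summed level of the 7 genes was 402 ± 121.8 CPM in OP50 worms at day 17, against 2074 ± 260 CPM at day 1 (SD, n = 3 each). It had stood at 2098 ± 378 CPM at day 6, when cpr-1 was high, 1431 ± 281 CPM at day 11 and 652 ± 12 CPM at day 15.

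**Figure D3:**
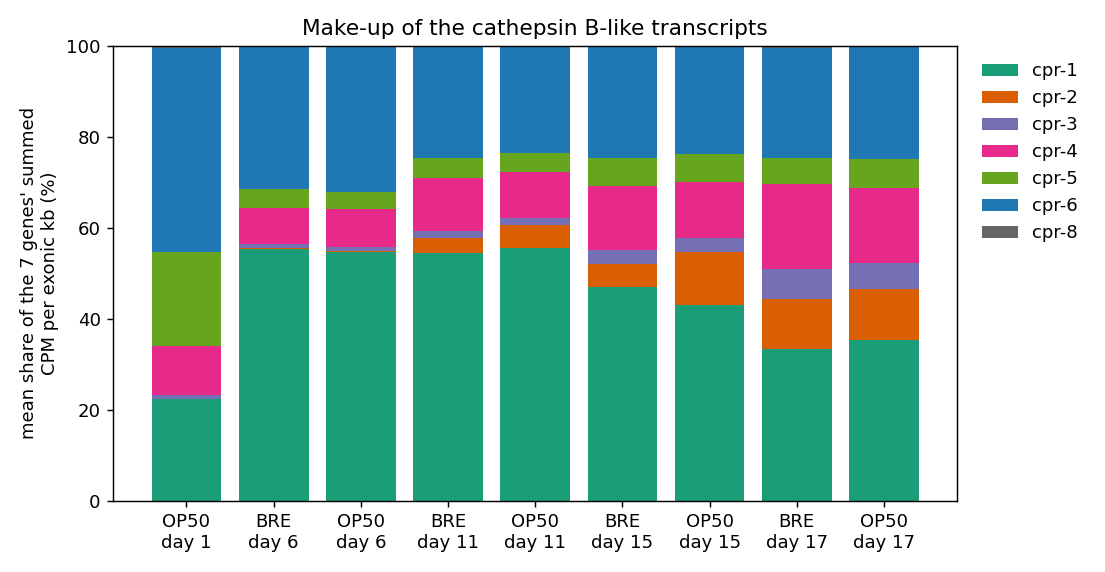
Stacked bars of the mean share (%) of each gene in the summed CPM per exonic kb of the 7 genes, for the 9 groups by day with BRE left of OP50. The blue cpr-6 part is the largest at OP50 day 1, the green cpr-1 part is the largest from day 6 on, and the orange cpr-2 part is 11.7% at OP50 day 15, 11.3% at OP50 day 17 and 10.8% at BRE day 17.

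Markers of the intestine were also lower in old worms. Of 12 intestine markers, 9 fell and 1, the intermediate filament gene ifd-2, rose at OP50 day 17 against day 1, with a median log2 change of -1.39 against 0.10 over all genes tested. In that comparison 24.8% of all genes tested were called lower and 29.1% higher. The proton pump subunit gene vha-6 changed by -3.72 (SE 0.21) and the actin gene act-5 of the gut's microvilli by -1.10 (SE 0.32). The gut master regulator elt-2 did not pass the test (-0.35, SE 0.41, adjusted p = 0.479), and the related factor elt-7 fell by 1.44 log2 units (SE 0.23, adjusted p = 2.12e-05). The lowest of the 12 at day 17 was the acid phosphatase gene pho-1, with 0.519 CPM against 29.2 CPM at day 1. Summed over the 12 markers, the OP50 libraries ranged from 728 to 1477 CPM at day 1, 249 to 270 at day 6, 259 to 306 at day 11, 305 to 390 at day 15 and 346 to 517 at day 17. act-5 alone had 208 CPM at day 17 and weighs heavily in that sum. By gene, the trend over days 6 to 17 in OP50 worms was called upward for 3 of the 12 and downward for 5, with a median slope of -0.02 per day. Of all genes, 34.5% were called upward and 25.5% downward in that trend, and nothing is read from the marker count. Markers of other tissues were compared at OP50 day 17 against day 1 too. Of 8 body wall muscle markers 7 fell (median -1.99), of 8 germline markers 6 fell (median -0.67) and all 6 yolk protein genes fell (median -5.87). None of 7 pharynx markers passed the test, 2 of 7 epidermis markers fell, and of 8 neuronal markers 2 rose and 1 fell. Of 4 coelomocyte markers 1 rose and 2 fell, and of 28 sperm genes tested 0 were called. The counts for pharynx, epidermis, neurons and sperm lay below the 53.9% called among all genes. The part of these tissues in the changes of the 7 genes was not tested.

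The wider protease group moved both ways at OP50 day 17 against day 1. The deposited counts cover 22 other papain-family genes. Of these, 20 were tested, and 9 rose and 8 fell, with a median log2 change of 0.80. All genes tested also moved both ways, with 29.1% called higher and 24.8% lower and a median of 0.10. The 2 called genes with the highest mean level over the 27 libraries, cpl-1 and cpr-9, both fell. The cathepsin L gene cpl-1 had 181 ± 51.5 CPM at day 17, against 1635 ± 63.3 CPM at day 1 (SD, n = 3 each), a log2 change of -3.18 (SE 0.19, adjusted p = 1.02e-11). cpr-9, which lies 26296 bp from cpr-1, had 18.5 ± 11.2 CPM, against 812 ± 107 CPM (-5.45, SE 0.41, adjusted p = 3.78e-10). Among the 9 that rose, levels at day 17 were low, with the exception of tag-196 at 100 CPM against 60.2 CPM at day 1 (0.74, SE 0.25, adjusted p = 0.0162), and the other 8 had at most 6.11 CPM.

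Both cystatin genes in the table rose at OP50 day 17 against day 1, beside 29.1% of all genes tested. cpi-1 had 530 ± 104 CPM in OP50 worms at day 17, against 24.6 ± 2.01 CPM at day 1 (SD, n = 3 each), a log2 change of 4.43 (SE 0.23, adjusted p = 2.20e-12). cpi-2 had 238 ± 33.5 CPM at day 17, against 161 ± 16.5 CPM at day 1 (0.56, SE 0.17, adjusted p = 0.00894). The cpi-1 level had reached 259 ± 55.4 CPM at day 6, a log2 change of 3.39 (SE 0.22, adjusted p = 2.99e-10). Summed over both genes, cystatin transcripts stood at 768 ± 137 CPM at OP50 day 17 and 186 ± 14.9 CPM at OP50 day 1.

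Of 11 genes of aspartyl proteases, which also act in the gut and the lysosome, 10 were called lower and 1 higher (median log2 change -4.08). asp-1 had 381 ± 120 CPM at day 17, against 2661 ± 620 CPM at day 1, and asp-6 had 798 ± 59.4 CPM, against 1811 ± 379 CPM. In a list of 21 other lysosome genes 12 fell and 2 rose (median -0.63). Among all genes tested 24.8% were called lower and 29.1% higher. The 2 lysosome genes with the highest mean level among those called were cup-5 and hex-1. The lysosomal channel gene cup-5 changed by -0.47 (SE 0.09, adjusted p = 2.32e-04), and hex-1, a hexosaminidase gene, by 0.37 (SE 0.14, adjusted p = 0.0289). Of 7 transcription factors that act in the gut, elt-7 was the 1 that passed the test, beside 53.9% of all genes.

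Genes with the most similar pattern to each member were sought among 5730 named genes, by the Pearson correlation of log2 CPM over the 27 libraries. For cpr-2 these were ins-2, an insulin-like peptide gene, at 0.926, elt-6, a GATA factor gene, at 0.925 and the cystatin gene cpi-1 at 0.924. For cpr-6 they were asp-13, an aspartyl protease gene, at 0.985, and ilys-5, an invertebrate-type lysozyme gene, and zig-9, both at 0.984. For cpr-8 they were smd-1 at 0.962, and pgrn-1, the progranulin gene, and cpr-9 at 0.957 and 0.957. For cpr-1 they were aagr-1 at 0.958, asah-1 at 0.950 and spp-8 at 0.947. The leading gene was trap-2 at 0.946 for cpr-5 and ule-5 at 0.917 for cpr-4. cpr-3 had the weakest likeness, with atz-1 at 0.795. All 27 libraries share the course with age, which most of these values follow, and they carry no test.

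The extract was compared with OP50 alone at the same age. At days 6, 11, 15 and 17 edgeR called 0 of the 7 members, beside 0.0156%, 0.0104%, 0% and 0% of all genes. At an unadjusted p under 0.05 there were 0 members at each day, beside 2.40%, 2.56%, 2.83% and 8.13% of all genes. DESeq2 called 0 members, but its share of all genes called is not given here, so nothing is read from that count. The 28 differences lay between -1.16 for cpr-2 at day 15 and 0.45 for cpr-4 at day 11, with 13 above 0 and 15 below. All 28 of their 95% intervals included 0, and 19 of the 28 lay within 2-fold either way. For the other 9 a change of 2-fold is inside the interval, so its absence is not shown.

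**Figure D4:**
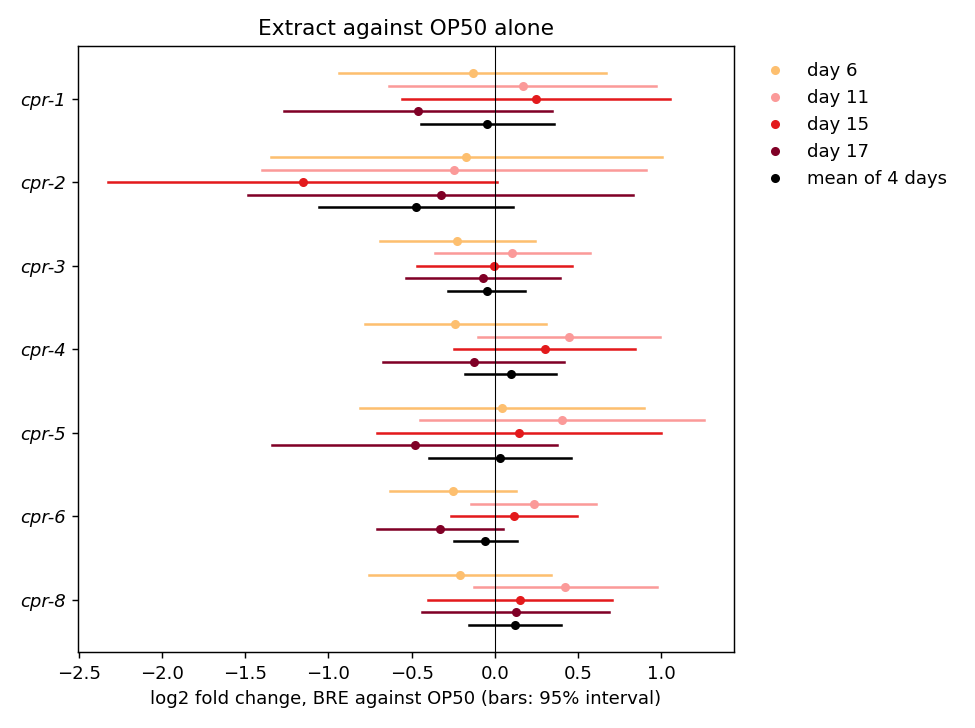
Log2 fold change of BRE against OP50 for each gene at days 6, 11, 15 and 17 and as the mean of the 4 days (black), with 95% intervals. Each interval includes 0, the widest belong to cpr-2, and the black points lie between -0.47 and 0.12.

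cpr-2 had the largest single difference. At day 15 it had 34.1, 31.5 and 30.1 CPM in BRE worms, against 56.8, 78.9 and 77.6 CPM in OP50 worms. The 3 BRE libraries lay below the 3 OP50 libraries, a log2 difference of -1.16 (SE 0.57, 95% interval -2.33 to 0.01, adjusted p = 1). At day 11 the BRE libraries, with 98.7, 26 and 40.4 CPM, lay on both sides of the OP50 libraries, with 67.0, 65.4 and 63.0 CPM (-0.24, SE 0.56). At day 17 the difference was -0.32 (SE 0.56), with BRE libraries at 29.3, 60.6 and 11.5 CPM and OP50 libraries at 67.2, 36.5 and 23.4 CPM.

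cpr-6 lay lower in every BRE library at both ends of the series and not between them. At day 6 it had 612, 553 and 657 CPM in BRE worms, against 765, 700 and 700 CPM in OP50 worms (-0.25, SE 0.18, adjusted p = 1). At day 17 it had 83.9, 80.5 and 84.0 CPM in BRE worms, against 112, 115 and 85.2 CPM in OP50 worms (-0.33, SE 0.18, adjusted p = 0.639). At day 11 the BRE libraries had 398, 358 and 566 CPM and the OP50 libraries 451, 264 and 409 CPM, with overlap (0.23, SE 0.18). At day 15 the BRE libraries had 218, 155 and 175 CPM and the OP50 libraries 170, 142 and 194 CPM, with overlap again (0.11, SE 0.18).

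cpr-4 had the largest positive difference. At day 11 it had 224, 167 and 182 CPM in BRE worms, against 137, 132 and 152 CPM in OP50 worms, with no overlap (0.45, SE 0.26, 95% interval -0.10 to 0.99, adjusted p = 1.00). cpr-3 at day 6 did not overlap either, with 16.3, 17.0 and 17.1 CPM in BRE worms, against 18.5, 20.2 and 20.3 CPM in OP50 worms (-0.23, SE 0.23, adjusted p = 1). In the other pairs of gene and day the libraries of the diets overlapped. The diets did not overlap for 2 of the 7 members at day 6, beside 6.41% of all genes, and for 1 of 7 at each later day, beside 4.3%, 5.68% and 13.1% of all genes at days 11, 15 and 17.

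For cpr-1 the BRE libraries had 1457, 902 and 625 CPM at day 6, 1026, 785 and 743 CPM at day 11, 460, 264 and 220 CPM at day 15, and 69.3, 140 and 95.2 CPM at day 17. In both diets the group mean fell at each sampled day after day 6. The differences from OP50 worms lay between -0.46 at day 17 and 0.25 at day 15, and an equal course is not shown by them. For cpr-5 the BRE libraries had 137, 58.0 and 53.8 CPM at day 6, 145, 48.6 and 54.9 CPM at day 11, 71.1, 31.2 and 40.3 CPM at day 15, and 17.7, 22.3 and 18.4 CPM at day 17. Replicate 1 was the highest of its group at days 6, 11 and 15, and the differences from OP50 worms lay between -0.48 at day 17 and 0.40 at day 11. For cpr-8 the BRE libraries ranged from 0.878 CPM at day 17 to 4.42 CPM at day 11, with differences between -0.21 at day 6 and 0.42 at day 11.

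Averaged over the 4 days, edgeR called 0 members, beside 0.0467% of all genes. DESeq2 called 0, with its share of all genes not given here. At an unadjusted p under 0.05 there were 0 members, beside 3.65% of all genes. The largest mean difference was that of cpr-2, -0.47 (SE 0.28, 95% interval -1.06 to 0.11, adjusted p = 0.967). The other 6 lay between -0.06 for cpr-6 (95% interval -0.25 to 0.13) and 0.12 for cpr-8 (95% interval -0.15 to 0.40). Their intervals all lay within 2-fold either way. A joint test of whether the 4 differences are equal called 0 members and 0% of all genes. The smallest unadjusted p of the 7 in it was 0.111, that of cpr-6. DESeq2 called 0 members in it, again with no share of all genes given. The intestine markers, cystatins, aspartyl proteases and other papain-family genes also had 0 members called by edgeR in the averaged comparison. The intestine markers of the BRE libraries summed to between 397 and 586 CPM at day 17, against 346 to 517 CPM in the OP50 libraries of that day.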

How the data were processed

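RNA of whole worms was sequenced, and the authors deposited 1 table of raw counts per gene for 27 libraries, with no normalization. The tools named in the submitters' processing notes are HISAT2 2.0.5, featureCounts, SAMtools 1.7, Trimmomatic and FastQC. Of their parameters, the strand setting and the build nothing is known here. Even numbers made up between 54.5% and 68.9% of the counts from 1 to 20 per library, so 1 count may not be 1 fragment.

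Counts were fitted in R 4.3.3 with edgeR 4.0.16 (TMM, filterByExpr with minimum count 10, 9 group means over 27 libraries, quasi-likelihood test), with Benjamini-Hochberg adjustment over 19290 genes within a contrast. The SE is the log2 change over the square root of the F statistic, and 95% intervals use the test's t distribution. Correlations use log2 CPM with a prior count of 2. DESeq2 1.42.0 and the other alternatives are in the closing section. The steps were tested on simulated data, with 100 genes changed 2-fold and 100 changed 4-fold. For BRE against OP50 at day 17, 53% and 94% of these were called, and for OP50 day 17 against day 1, 51% and 97%. Averaged over days, 96% and 100% were called. A 2-fold change at a single day can thus go uncalled. No 2 replicates agreed within sampling noise. Counts of members called between ages leave out cpr-2, which was chosen for its age course. P-values set a difference against the spread between replicate libraries, which was estimated from all 27 libraries together.

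The members and the gene lists were chosen with earlier results of these data known. From each list the 2 called genes with the highest mean CPM over the 27 libraries are named. act-5, elt-2, ifd-2, vha-6, pho-1 and tag-196 were chosen after their values were seen. Listed symbols with no match in the deposited table were not analysed here. The genes most like a member are the 3 of highest correlation among named genes that reached 5 CPM as the mean of any group.

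Whether BRE and OP50 libraries with equal replicate numbers pair within a day was checked by correlating how far each lay from its group mean. The correlation was 0.221, 0.194 and 0.307 at day 6 and 0.498, 0.412 and 0.218 at day 11, which pairs them by the rule of 0.1 or more, from the data and not the labels. At days 15 and 17 it was not above 0.1 in every pair. Among unequal numbers, BRE replicate 2 and OP50 replicate 3 of day 11 had 0.231. The other unequal pairs of days 6 and 11 had negative values. Sequences of the genes were not used here.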

Additional observations from a re-analysis of the deposited data

How the results depend on the processing

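Of 74 changes of single members, 51 kept their direction and their side of the threshold under every alternative, or, for the age course of cpr-2, which was not tested, stayed within 1 SE. Counts of members called, between ages those other than cpr-2, changed by over 1.5 times in these cases. The share of all genes called under each alternative is not given here, so nothing about the members is read from these counts. OP50 day 15 against day 11 gave 1 without the 4 libraries with most sperm transcript, an alternative chosen after seeing the data, and 1 to 2 without single libraries. OP50 day 17 against day 15 gave 1 by DESeq2. BRE day 11 against day 6 gave 2 by DESeq2, with no filter, with RLE size factors and with the replicate block across days, and 0 to 1 without single libraries. BRE day 15 against day 11 gave 2 with only the libraries of the contrast, 1 without the sperm-rich libraries and 1 to 3 without single libraries. BRE day 17 against day 15 gave 1 with only the libraries of the contrast, 1 with RLE size factors, 1 without the sperm-rich libraries and 1 to 2 without single libraries. Where fewer libraries are fitted, fewer degrees of freedom remain. The cause of these shifts, in either direction, was not tested. Signs turned only for values that were not called. For cpr-3 at OP50 day 6 against day 1 the value was 0.017 with no filter and 0.0089 with only the libraries of the contrast, and -0.28 to 0.28 without single libraries. At OP50 day 15 against day 1 it was -0.0034 to 0.55 without single libraries. For cpr-2 at BRE day 15 against day 11 it was 0.084 without the sperm-rich libraries and -1.07 to 0.084 without single ones, and at BRE day 17 against day 15 -0.64 to 0.51. In the averaged extract comparison cpr-5 was at -0.028 with the replicate block within the day, -0.13 without the sperm-rich libraries and -0.16 to 0.098 without single ones. There cpr-6 was at 0.0082 without the sperm-rich libraries, and cpr-1 at -0.15 to 0.066 without single ones. The replicate block within the day changed no call of a member. Libraries of different days share only a number. With that number as a replicate block, 4 more values were called, among them cpr-6 at OP50 day 6 (-0.41, adjusted p = 0.0451), and cpr-1 (0.94, adjusted p = 0.0242) and cpr-4 (-0.59, adjusted p = 0.0437) at OP50 day 11, where the count was 5. With only the libraries of the contrast cpr-6 at day 6 (-0.37, adjusted p = 0.0385), cpr-4 at day 11 (-0.59, adjusted p = 0.0331) and the BRE trend of cpr-3 (adjusted p = 0.0115) were called too. The fit with RLE size factors and the fit with no filter called cpr-6 for BRE day 11 against day 6 (adjusted p = 0.0394 and 0.0403). At day 17 cpr-8 rests on 98 to 210 counts a library, the fewest of the 7, and cpr-2 at day 1 on 13 to 19.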
